A study of Mus musculus with 4 samples.

Results

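This account follows 9 genes that are strongly expressed in the striatum, Tac1, Penk, Pdyn, Drd1, Drd2, Adora2a, Ppp1r1b, Rgs9 and Pde10a, in tissue that was dissected as cortex. The genes were chosen with earlier results of these data known, and their probes were taken by name. Every spot outside the controls whose RefSeq accession maps to one of these mouse symbols was used. This gave 13 of the 39429 probes on the array, of which 12 were bright enough to test among 30259 tested probes. Rgs9 and Pde10a had 3 probes each and the other 7 genes had 1 each.

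The study set Ndrg2 knockout against wild-type C57BL/6 mice, 8 weeks old, after permanent closure of the left middle cerebral artery, which had been electrocoagulated just beyond its crossing of the olfactory tract. Both genotypes had the same operation, and the cortex of the injured side was taken 24 h later. Each of the 4 arrays, all on 1 slide, compared 1 knockout-labelled sample in the dye Cy3 with 1 wild-type sample in Cy5 of the same replicate number. The labels name no unoperated cortex, no other brain region and no reversed dye order, so a dye effect of a single probe and the genotype cannot be told apart. Whether the samples are from separate animals, and which cells the Ndrg2 deletion reached, is not stated in the labels. The p-values therefore cover the spread of the knockout-labelled to wild-type ratios of these 4 arrays alone, and part of that may be technical.

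Across the arrays, the share of spots well above background was 73.6 to 74.9% for Cy3 and 76.7 to 79.0% for Cy5, with 0 saturated spots. The number of arrays, 4, limits the precision. Ndrg2 itself, as the log2 of the knockout-labelled over the wild-type signal, stood at -0.22, -0.22, -0.18 and -0.11 on arrays 1 to 4, with a mean of -0.18 ± 0.05 (SD, n = 4) and an adjusted p of 0.0245 in limma, a call that was lost without replicate 1, 2 or 3 (adjusted p = 0.0833, 0.0882 and 0.0722). It was also lost, at a mean of -0.043, with ratios from the scanner software (adjusted p = 0.528), whereas centring on the array median gave -0.81 (adjusted p = 5.07e-06). This is a small difference for a targeted gene, and the labels used here do not say whether the probe lies in the deleted part, so the samples are called knockout-labelled throughout. All log2 ratios below have this direction, and values in a series of 4 are given in the order of arrays 1 to 4.

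The striatum lies beneath the cortex and consists mostly of spiny projection neurons that use GABA. Neurons of the direct pathway express the dopamine receptor D1, substance P and dynorphin, and neurons of the indirect pathway express the dopamine receptor D2, the adenosine receptor A2a and enkephalin. Both kinds hold a set of proteins that act on dopamine and cyclic AMP signals, among them DARPP-32, RGS9 and PDE10A. Several of these genes are also expressed in parts of the cortex or the olfactory tubercle at lower levels or in scattered cells, so none of them marks the striatum alone.

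The promoters of Tac1 and Pdyn are shown because they belong to the 2 genes of the 9 that passed the test, in opposite directions and although both encode peptides of the direct pathway. Each sequence holds the 250 bases before the gene's start, 5′ to 3′ on the gene's own strand, from RefSeq on the build GRCm38.p6. Capitals mark matches to the cyclic AMP response element core TGACG, read on either strand.
Tac1 (chr6:7554811-7555060, plus strand): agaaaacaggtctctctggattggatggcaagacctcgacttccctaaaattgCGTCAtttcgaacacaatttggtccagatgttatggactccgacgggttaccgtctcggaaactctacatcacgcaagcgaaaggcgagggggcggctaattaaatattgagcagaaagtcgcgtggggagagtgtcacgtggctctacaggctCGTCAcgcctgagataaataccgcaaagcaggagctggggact
Pdyn (chr2:129699939-129700188, minus strand, the first of 2 starts): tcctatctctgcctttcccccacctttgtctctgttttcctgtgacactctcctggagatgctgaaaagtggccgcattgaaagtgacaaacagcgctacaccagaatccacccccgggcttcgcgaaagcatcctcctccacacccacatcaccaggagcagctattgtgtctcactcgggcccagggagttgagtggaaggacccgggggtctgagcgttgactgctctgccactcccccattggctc
The Tac1 promoter holds the core at 197 and at 43 bases before the start, in the orientation CGTCA. The Pdyn stretch holds no match to it. Over all 32851 promoter windows of this table, each of 300 bases that run 50 bases past the start, 20.8% held TGACG on either strand, 1.79% the full element TGACGTCA, which contains the core, and 7.81% the AP-1 site TGANTCA. Of the 9 genes, 6 had a window in the table, and neither the full element nor the AP-1 site was found in those of Tac1 or Pdyn. These matches describe letters in a window and are no evidence of binding.

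Of the 12 tested probes, 1 was lower (Tac1) and 1 was higher (Pdyn) in the knockout-labelled samples at an adjusted p under 0.05, and 10 did not pass. Among all 30259 tested probes 11.7% were lower and 9.28% were higher, so the counts of 1 of 12 each lie near the share that passed on the whole array. With the probes centred on the array median in place of the intensity-dependent loess fit, 9 of the 12 were lower and 2 higher, while 15570 of the 30259 tested probes were lower and 7899 higher, and their median moved to -0.15 (log2).

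Tac1, which encodes the precursor of substance P and neurokinin A, was the direct-pathway gene with the largest mean difference. Its log2 level in the knockout-labelled samples was 11.93, 11.48, 11.77 and 11.79, and in the wild-type samples 12.58, 12.27, 11.92 and 12.25. The knockout-labelled sample was the lower of the pair on every array, by the least on array 3, and over all samples the groups overlapped only in that wild-type sample 3 lay just below knockout-labelled sample 1. The log2 ratios were -0.65, -0.79, -0.14 and -0.46, with a mean of -0.51 ± 0.28 (SD, n = 4), a 1.42-fold lower level (adjusted p = 0.0139 in limma, 95% interval of the log2 ratio -0.74 to -0.28). The call was lost without replicate 1 (adjusted p = 0.0581), without replicate 2 (adjusted p = 0.0522) and with ratios as the scanner software computed them (adjusted p = 0.0638), with the sign kept, and median centring gave a mean of -0.84. Under the 14 alternatives in all, the adjusted p ran from 5.93e-05 to 0.0638.

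Pdyn, which encodes the precursor of the dynorphins, was a dim probe that stood slightly higher in the knockout-labelled sample of every pair. The log2 level was 7.21, 7.30, 7.48 and 7.51 in the knockout-labelled samples and 7.16, 7.06, 7.12 and 7.32 in the wild-type samples. The groups overlapped, since wild-type sample 4 lay above knockout-labelled samples 1 and 2. The log2 ratios were 0.05, 0.24, 0.36 and 0.18, with a mean of 0.21 ± 0.13 (SD, n = 4), a 1.16-fold higher level (adjusted p = 0.0399 in limma, 95% interval 0.08 to 0.34). The spot signals behind it were 84 to 107.5 in the knockout-labelled channel over a local background of 27 to 33.5. The call was lost without replicate 2, 3 or 4 (adjusted p = 0.125, 0.122 and 0.0852) and with no replicate block (adjusted p = 0.121). The mean was 0.52 with the scanner software's ratios and 0.43 with median centring, and over the 14 alternatives the adjusted p ran from 0.000103 to 0.125.

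Drd1, the dopamine receptor of the direct pathway, did not pass. Its log2 level was 9.11, 8.88, 8.93 and 9.05 in the knockout-labelled samples, a narrow band, and 9.39, 9.25, 8.79 and 9.02 in the wild-type samples, where samples 1 and 2 lay above all 4 knockout-labelled samples and sample 3 below them. The log2 ratios of -0.28, -0.37, 0.14 and 0.02 therefore had both signs, with a mean of -0.12 ± 0.24 (SD, n = 4, adjusted p = 0.338 in limma, 95% interval -0.32 to 0.08).

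**Figure D1:**
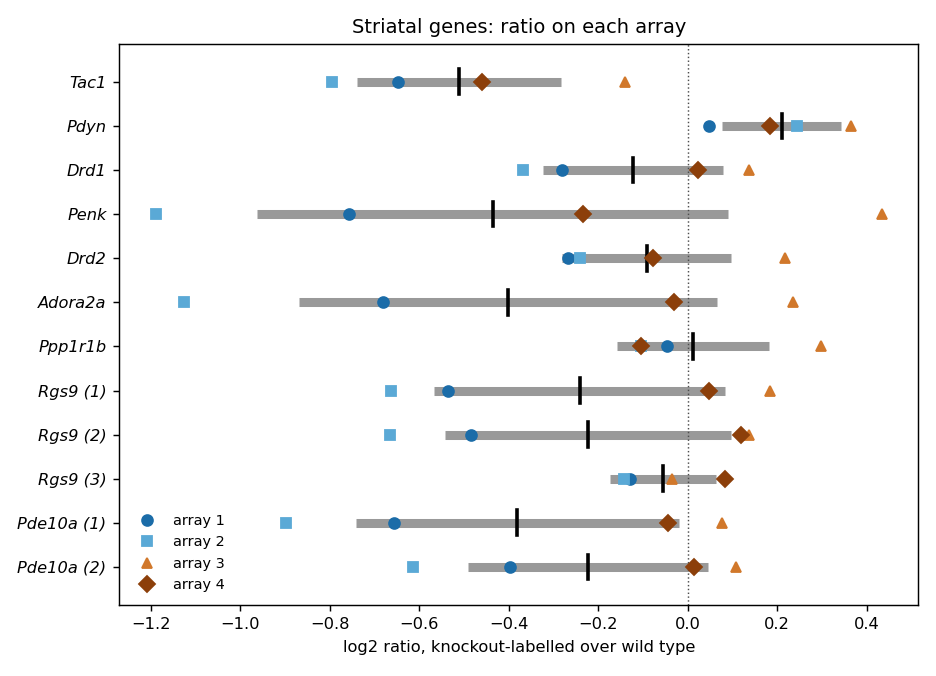
Log2 ratio, knockout-labelled to wild type (x axis), for each of the 12 tested probes of the 9 striatal genes (y axis), with 1 symbol per array, the mean as a vertical line and its 95% interval in limma as a grey bar. Arrays 1 and 2 lie to the left for most genes, array 3 lies at 0.43 for Penk and at -0.14 for Tac1, and Pdyn is the probe with all 4 arrays above 0.

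Of the 9 genes, the indirect-pathway genes Penk and Adora2a varied most between arrays. Penk, the precursor of the enkephalins, had log2 levels of 14.18, 13.60, 14.67 and 14.32 in the knockout-labelled samples and 14.94, 14.79, 14.24 and 14.56 in the wild-type samples. Knockout-labelled sample 2 was the lowest of the 8 and sample 3 was above wild-type samples 3 and 4, so the groups overlapped. The log2 ratios ran from -1.19 on array 2 through -0.76 on array 1 and -0.23 on array 4 to 0.43 on array 3, with a mean of -0.44 ± 0.70 (SD, n = 4, adjusted p = 0.203 in limma, 95% interval -0.96 to 0.09). Without replicate 3 the mean was -0.73 and the adjusted p 0.0402, which passed the threshold. Over the 14 alternatives its adjusted p ran from 0.00227 to 0.575.

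Adora2a, the adenosine receptor that opposes the dopamine receptor D2 in these neurons, had log2 levels of 9.57, 8.78, 9.44 and 9.24 in the knockout-labelled samples. In the wild-type samples they were 10.25, 9.91, 9.20 and 9.27. Wild-type samples 1 and 2 were the highest of the 8 and knockout-labelled sample 2 the lowest, while samples 3 and 4 of both genotypes lay together. The log2 ratios were -0.68, -1.13, 0.24 and -0.03, with a mean of -0.40 ± 0.62 (SD, n = 4), and did not pass (adjusted p = 0.189 in limma, 95% interval -0.87 to 0.07).

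Drd2, the dopamine receptor of the indirect pathway, varied less, with array 1 the lowest and array 3 the highest. Its log2 levels lay within 7.12 to 7.27 in the knockout-labelled samples and were 7.52, 7.36, 7.05 and 7.19 in the wild-type samples, so wild-type samples 1 and 2 lay above every knockout-labelled sample and wild-type sample 3 below all of them. The log2 ratios were -0.27, -0.24, 0.22 and -0.08, with a mean of -0.09 ± 0.22 (SD, n = 4, adjusted p = 0.446 in limma, 95% interval -0.28 to 0.10). With median centring the mean turned to 0.13. The probe was dim, with spot signals of 81 to 92 in the knockout-labelled channel over a local background of 31.5 to 37.

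Among the genes of both pathways, Ppp1r1b, which encodes DARPP-32, an inhibitor of protein phosphatase 1 that dopamine signals switch on, was nearly level. Its log2 levels were 14.06, 13.98, 14.33 and 14.15 in the knockout-labelled samples and 14.10, 14.09, 14.03 and 14.25 in the wild-type samples. The groups overlapped widely, with knockout-labelled sample 3 as the highest value. The log2 ratios were -0.05, -0.10, 0.30 and -0.10, with a mean of 0.01 ± 0.19 (SD, n = 4, adjusted p = 0.929 in limma, 95% interval -0.16 to 0.18). The mean was -0.46 with median centring and -0.085 without replicate 3.

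Rgs9, a regulator that shortens G protein signals downstream of the dopamine receptors, was measured by 3 probes. The first had log2 levels of 12.20, 11.88, 12.32 and 12.23 in the knockout-labelled samples and 12.73, 12.54, 12.14 and 12.18 in the wild-type samples. Wild-type samples 1 and 2 were again above all 4 knockout-labelled samples. The log2 ratios of this probe were -0.53, -0.66, 0.18 and 0.05, with a mean of -0.24 ± 0.42 (SD, n = 4, adjusted p = 0.246 in limma, 95% interval -0.57 to 0.08). The second probe, designed on the same transcript accession, gave -0.48, -0.67, 0.14 and 0.12. The third, designed on another transcript accession, gave -0.13, -0.14, -0.03 and 0.08, a smaller spread. It was a dim probe, with spot signals of 70 to 78.5 in the knockout-labelled channel over a local background of 31 to 38. Its mean of -0.06 turned to 0.28 with median centring.

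Pde10a encodes a phosphodiesterase that breaks down cyclic AMP and cyclic GMP in both kinds of projection neuron. Its first probe had log2 levels of 11.35, 11.46 and 11.46 in knockout-labelled samples 1, 3 and 4, with sample 2 below these and a range of 0.47 over the 4, and 12.01, 11.89, 11.38 and 11.51 in the wild-type samples. The knockout-labelled samples other than sample 2 lay close together, and wild-type samples 1 and 2 stood above all others. The log2 ratios were -0.66, -0.90, 0.08 and -0.04, with a mean of -0.38 ± 0.47 (SD, n = 4) that had an unadjusted p of 0.0414 and did not pass after adjustment (adjusted p = 0.119 in limma, 95% interval -0.74 to -0.02). The second probe gave -0.40, -0.61, 0.11 and 0.01 (adjusted p = 0.203 in limma). The third was not well above background in either channel on any array, and no ratio is given for it.

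**Figure D2:**
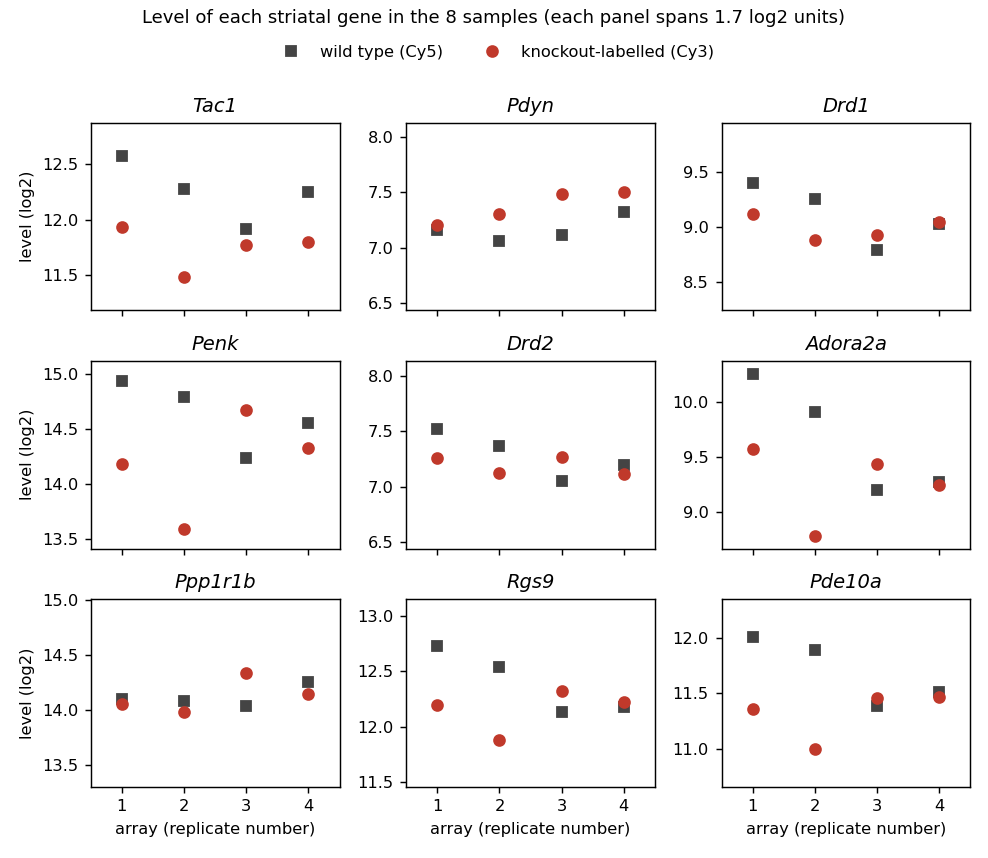
Log2 level (y axis) of each of the 9 striatal genes in the 4 knockout-labelled and the 4 wild-type samples, after normalization within and between arrays, with 1 panel per gene, red circles for knockout-labelled and dark squares for wild-type samples, and the 2 samples of an array above the same replicate number (x axis). Wild-type samples 1 and 2 stand above the other wild-type samples for Adora2a (10.25 and 9.91 against 9.20 and 9.27) and Pde10a (12.01 and 11.89 against 11.38 and 11.51).

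The median log2 ratio of the 9 genes, with the brightest probe for each, was -0.53, -0.66, 0.22 and -0.04 on arrays 1 to 4, whereas the median of all tested probes was -0.01 on each array. On arrays 1 and 2, 8 of the 9 genes lay below 0, on array 3 only Tac1 did, and on array 4 6 of the 9 did. Of all tested probes 52.2, 52.2, 52.4 and 52.6% lay below 0. Averaged over arrays the median of the 9 genes was -0.26 ± 0.41 (SD, n = 4 arrays), a difference smaller than its spread. It was -0.41 without replicate 3 and -0.12 without replicate 2.

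The medians of both pathways had the same order of arrays, and the indirect one covered the wider range. The median of Penk, Drd2 and Adora2a was -0.68, -1.13, 0.24 and -0.08. The median of Tac1, Pdyn and Drd1 was -0.28, -0.37, 0.14 and 0.02, and that of Ppp1r1b, Rgs9 and Pde10a was -0.53, -0.66, 0.18 and -0.04. With 3 genes each, the direct-pathway median was the ratio of Drd1 on every array. The indirect-pathway median was that of Adora2a on arrays 1 to 3 and of Drd2 on array 4. Pdyn and Drd2 had other orders, with array 1 the lowest. The difference between the pathways was not tested.

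Most of the 9 genes were among the most variable probes of the series. The SD of the log2 ratio over the arrays had a median of 0.28 for the 9 genes and 0.10 for all tested probes. Penk had a larger SD than 99.8% of the tested probes, Adora2a than 99.7% and Pde10a than 99.2%. Tac1 stood at 96.7%, Drd1 at 94.8%, Drd2 at 93.5%, Ppp1r1b at 90.1% and Pdyn at 72.1%. The genes share arrays and samples, so these values are no independent measurements.

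The spread was present within the wild-type samples alone, where genotype does not differ. From the lowest to the highest of the 4 wild-type samples the level spanned 2.07-fold for Adora2a, 1.62-fold for Penk, 1.58-fold for Tac1, 1.55-fold for Pde10a, 1.52-fold for Drd1, 1.51-fold for Rgs9 and 1.39-fold for Drd2. Pdyn and Ppp1r1b had the narrowest log2 ranges, 0.27 and 0.22. The wild-type range of Adora2a was wider than that of 99.7% of tested probes, and those of Tac1, Pde10a, Drd1 and Rgs9 were wider than that of 98.8, 98.6, 98.5 and 98.4%.

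Among the knockout-labelled samples Penk ranged 2.11-fold and Adora2a 1.73-fold, and both stood among the widest ranges of that channel (wider than 99.3 and 98.2% of tested probes). Drd1 and Drd2 ranged only 1.18-fold and 1.11-fold there, wider than 59.5 and 29.9% of probes, and the probe of Drd2 was dim. Over the 9 genes the range was wider in wild type for 6, all but Pdyn, Penk and Ppp1r1b, against 38.4% of all tested probes. The median log2 range was 0.44 in the knockout-labelled and 0.60 in the wild-type samples, and for all tested probes 0.21 and 0.17. Each channel was read in its own dye only, so a difference between the ranges and a difference between the dyes cannot be told apart.

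Set against each gene's own mean in a channel, the median of the 9 genes was 0.31, 0.13, -0.32 and -0.09 in wild-type samples 1 to 4, and 0.04, -0.26, 0.14 and 0.05 in the knockout-labelled samples. Wild-type sample 1 was thus the highest, wild-type sample 3 the lowest, and knockout-labelled sample 2 stood lowest in its group. The negative ratios of array 1 arose with a high wild-type sample, those of array 2 with a high wild-type and a low knockout-labelled sample, and the positive ratios of array 3 with a low wild-type and a high knockout-labelled sample. In bulk tissue, fewer striatal cells in a sample and less of these RNAs per cell cannot be told apart.

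**Figure D3:**
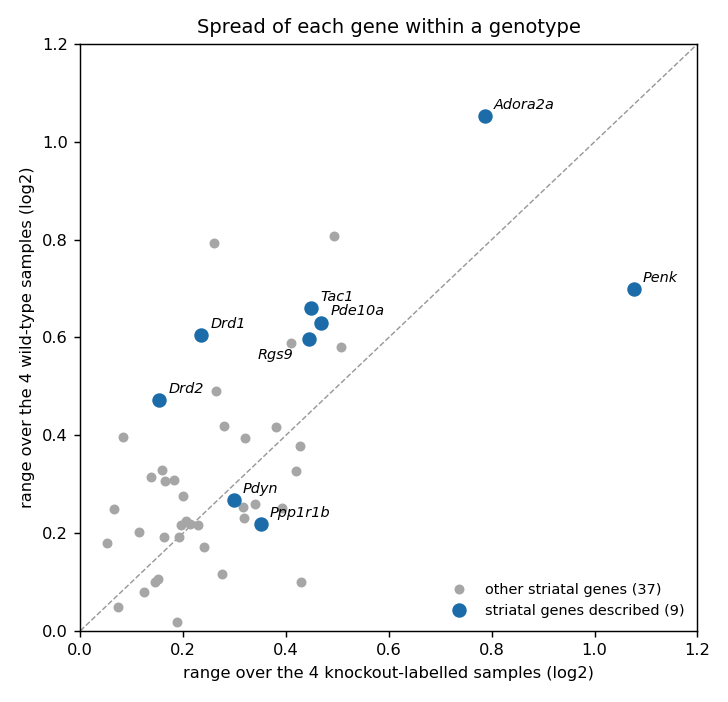
Log2 range from the lowest to the highest of the 4 samples in the knockout-labelled (x axis) against the wild-type samples (y axis), for the 9 striatal genes (blue) and 37 further striatal genes (grey), with a dashed line of equal ranges. The range of Adora2a reaches 1.05 in wild type and that of Penk 1.08 in the knockout-labelled samples, and the wild-type range is the wider one for 6 of the 9 genes.

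Further striatal genes stood closer to the median of the array than the 9. Of 37 further genes of striatal projection neurons, 6 were lower, 2 were higher and 29 did not pass, beside the 11.7% and 9.28% of all tested probes. The 13 signalling genes had a median of -0.12, -0.19, -0.04 and -0.07 on arrays 1 to 4, with 4 lower and 0 higher (5 had an unadjusted p under 0.05). The 13 receptors and channels had -0.11, -0.13, 0.00493 and -0.02 with 1 lower and 1 higher, and the 11 transcription factors -0.15, -0.21, 0.04 and -0.01 with 1 lower and 1 higher. Arrays 1 and 2 were the lowest in all 3 lists, on a smaller scale than for the 9 genes. All 13 signalling genes, 11 of the 13 receptors and channels and 10 of the 11 transcription factors were well above background in every sample. Several receptors, channels and transcription factors were dim, and small differences cannot be measured well on dim probes.

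Among the signalling genes, Rasd2, a small GTPase also known as Rhes, was lower on every array, with log2 ratios of -0.33, -0.35, -0.17 and -0.17 and a mean of -0.25 ± 0.10 (SD, n = 4, adjusted p = 0.0146 in limma). Itpr1, the receptor that releases calcium from the endoplasmic reticulum, fell by 0.17 on the log2 scale (adjusted p = 0.0245 in limma), and Ppp1r9b, which encodes spinophilin, also fell by 0.17 (adjusted p = 0.0369 in limma). The fourth was Gnal, the G protein alpha subunit that couples the D1 and A2a receptors to adenylyl cyclase, with -0.18 (adjusted p = 0.0427 in limma). The call of Rasd2 was lost without replicate 1 or 2 (adjusted p = 0.0576 and 0.0603), and those of Itpr1 and Ppp1r9b in every fit without 1 replicate (adjusted p = 0.0673 to 0.0835 and 0.0771 to 0.125), with the sign kept.

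Kcnip2, a subunit that shapes A-type potassium currents, was higher on every array, with log2 ratios of 0.50, 0.24, 0.27 and 0.33 and a mean of 0.33 ± 0.12 (SD, n = 4, adjusted p = 0.00845 in limma), and it was called under all 14 alternatives. Oprm1, the mu opioid receptor, fell by 0.20 (adjusted p = 0.0337 in limma), and Gpr6, an orphan receptor of the indirect pathway, had -0.16 and did not pass (adjusted p = 0.066 in limma). The call of Oprm1 was lost in every fit without 1 replicate (adjusted p = 0.0589 to 0.113).

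Of the transcription factors, Foxp1, a forkhead factor of projection neurons that deep cortical layers also express, was higher by 0.21 ± 0.08 (SD, n = 4, adjusted p = 0.0217 in limma), and stood at -0.24 with median centring. Rarb, a retinoic acid receptor, was lower, with -0.42, -0.36, -0.10 and -0.20 and a mean of -0.27 ± 0.15 (SD, n = 4, adjusted p = 0.0232 in limma). Six3, a factor of the indirect pathway, had a mean of -0.19 and did not pass (adjusted p = 0.092 in limma). The call of Foxp1 was lost without replicate 1, 2 or 4 (adjusted p = 0.0769, 0.0744 and 0.0549) and that of Rarb without replicate 1 or 2 (adjusted p = 0.0815 and 0.0899). Six3 passed without replicate 3 (adjusted p = 0.0487).

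Slc35d3 and Gng7, the further striatal genes closest to the array profile of the 9, did not pass and were chosen after their values were seen. Slc35d3, a transporter-like protein of direct-pathway neurons, had -0.60, -0.54, -0.06 and -0.03 (adjusted p = 0.0727 in limma). Gng7, the G protein gamma subunit that partners Gnal, had -0.41, -0.58, -0.06 and -0.07 (adjusted p = 0.067 in limma). The wild-type range was wider than the knockout-labelled one for 6 of the 13 signalling genes, 8 of the 13 receptors and channels and 8 of the 11 transcription factors.

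Markers of the labelled tissue were present and steadier. All 16 cortical projection neuron markers were well above background in both channels on all arrays, with medians of 0.0052, -0.03, 0.08 and -0.08 and 1 lower and 1 higher. Neurod2, a transcription factor of cortical excitatory neurons, was higher by 0.16 ± 0.06 (SD, n = 4, adjusted p = 0.034 in limma), though it was -0.27 with median centring. Tbr1, a factor of deep layer neurons, fell by 0.21 (adjusted p = 0.0426 in limma), and Emx1, a factor of the cortical lineage, had 0.22 and did not pass (adjusted p = 0.0954 in limma), though it did without replicate 4 (adjusted p = 0.0297). Both calls, of Neurod2 and Tbr1, were lost in at least 3 of the 4 fits without 1 replicate (adjusted p = 0.0623 to 0.118 without replicate 1, 2, 3 or 4 for Neurod2, and 0.109 to 0.139 without replicate 1, 3 or 4 for Tbr1). The summed level of the 16 markers was 110724 to 119184 in the knockout-labelled and 111281 to 125654 in the wild-type samples, whereas that of the 9 striatal genes was 38432 to 59701 and 48436 to 68212 (linear units after normalization). Penk and Ppp1r1b were the brightest of the 9, at log2 levels of 13.60 to 14.94 and 13.98 to 14.33, so the sum of the 9 mainly follows these genes.

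General neuronal genes did not share the array order. The 13 had medians of 0.02, 0.06, -0.01 and -0.07, with 2 lower and 1 higher. Nefm, a neurofilament subunit, was higher by 0.26 ± 0.04 (SD, n = 4, adjusted p = 0.0083 in limma), with -0.11 under median centring. Syn1, a synaptic vesicle protein, and Stmn2, a microtubule regulator of growing axons, fell by 0.23 and 0.22 (adjusted p = 0.0148 and 0.0233 in limma). The call of Nefm was kept in each fit without 1 replicate, that of Syn1 was lost without replicate 2 or 3 (adjusted p = 0.0614 and 0.0515) and that of Stmn2 without replicate 1, 2 or 4 (adjusted p = 0.0657 to 0.0875). Their summed level was 438445 to 463768 in the knockout-labelled and 450326 to 473874 in the wild-type samples.

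GABAergic and interneuron markers, which include genes that the striatum also uses, had medians of -0.08, -0.15, -0.03 and -0.23 over 9 genes, with array 4 the lowest, and 3 were lower. Cck, a neuropeptide of cortical neurons, fell by 0.52 ± 0.19 (SD, n = 4, adjusted p = 0.00521 in limma). Gad2, an enzyme that makes GABA, and Lhx6, a factor of interneurons, fell by 0.24 and 0.18 (adjusted p = 0.0424 and 0.0456 in limma). The call of Cck was kept in each fit without 1 replicate and lost, at a mean of -0.33, with the scanner software's ratios (adjusted p = 0.0677). That of Gad2 was lost without replicate 1, 2 or 4 (adjusted p = 0.11 to 0.143) and that of Lhx6 in each such fit (adjusted p = 0.0545 to 0.153). The summed level of the 9 genes of this list was 214632 to 246330 in the knockout-labelled and 279784 to 307637 in the wild-type samples. Cck was the brightest of them, at log2 levels of 16.65 to 16.88 and 17.23 to 17.44, so this sum follows Cck more than any other marker. Of 6 cholinergic markers 4 were tested, with 0 called in either direction and 1 at an unadjusted p under 0.05, and medians of -0.11, -0.17, 0.17 and -0.06.

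Markers of tissue next to the striatum had part of the same order of samples. Choroid plexus lies in the lateral ventricle, and its 10 markers were well above background on all arrays, with medians of -0.18, -0.06, -0.0039 and -0.16, 8 of 10 mean ratios below 0, 1 lower and 0 higher. Otx2, a factor of choroid plexus epithelium, had -0.42, -0.71, -0.13 and -0.23 and a mean of -0.37 ± 0.26 (SD, n = 4, adjusted p = 0.0277 in limma). Ttr, the thyroid hormone carrier, had -0.74, -1.46, -0.09 and -0.27 and did not pass (adjusted p = 0.0573 in limma), nor did the chloride channel protein Clic6 (mean -0.43, adjusted p = 0.0599 in limma). The call of Otx2 was lost without replicate 1 or 2 (adjusted p = 0.0938 and 0.0658), and Ttr and Clic6 passed without replicate 3 (adjusted p = 0.0483 and 0.037). The summed level of the 10 markers was 2512, 2580, 2273 and 2388 in the knockout-labelled and 3381, 3433, 2481 and 2916 in the wild-type samples, so wild-type samples 1 and 2 were high and sample 3 low, as for the 9 genes. This was not particular to the choroid plexus. The wild-type sums of the cortical projection neuron markers were 125654, 122618, 111281 and 119188, also with samples 1 and 2 high and sample 3 low. Those of the ependymal markers and the further striatal signalling genes were so too. The order differed in the knockout-labelled samples. There sample 2 had the highest and sample 3 the lowest choroid plexus sum, whereas the sums of the 9 genes were 48435, 38432, 59701 and 51265. The high sum of sample 2 mainly follows Aqp1, at a log2 level of 9.85 there against 8.61 to 9.32 in the other knockout-labelled samples. Otx2, Ttr and Clic6 were lower in knockout-labelled samples 2 and 3 than in samples 1 and 4. For these markers sample 2 was thus low, as for the 9 genes, but sample 3 was low too. The remaining markers went either way. The part of the choroid plexus markers in the result was not tested.

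Other lists also had their lowest medians on arrays 1 and 2. Astrocyte markers had -0.27, -0.35, -0.12 and -0.25 with 3 of 6 lower, and the 9 tested of 11 microglia, monocyte and neutrophil markers -0.32, -0.36, -0.12 and -0.17 with 4 lower. Meningeal fibroblast markers had -0.30, -0.30, 0.03 and -0.24 with 3 of 9 lower, erythrocyte genes -0.36, -0.65, -0.14 and 0.15 with 1 of 5 lower, and ependymal markers -0.20, -0.23, -0.0090 and 0.25 with 1 of 6 lower. White matter markers had -0.17, -0.27, 0.26 and 0.42 with 0 lower and 1 of 9 higher, and array 4 was their highest. Endothelial markers had -0.19, -0.15, -0.05 and 0.02, with 0 of 6 called in limma and 4 at an unadjusted p under 0.05. The summed level was 17128 to 25648 in the knockout-labelled and 23094 to 28155 in the wild-type samples for meningeal, 75466 to 128700 and 106464 to 129417 for erythrocyte, 2761 to 3450 and 2934 to 3402 for ependymal, 148122 to 218222 and 170634 to 184718 for white matter, and 12639 to 17794 and 13477 to 14640 for endothelial markers. All of these genes that were tested were well above background in every sample, and their part in the result was not tested.

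The astrocyte genes with the smallest p were Aldoc, an enzyme of glycolysis, Slc1a2, a glutamate transporter, and Aqp4, a water channel, which fell by 0.39, 0.30 and 0.41 (adjusted p = 0.00395, 0.00846 and 0.00909 in limma). The myeloid genes were Cx3cr1, the fractalkine receptor, Itgam, an integrin subunit, and Csf3r, the receptor of a granulocyte growth factor, which fell by 0.29, 0.24 and 0.25 (adjusted p = 0.00677, 0.0154 and 0.0198 in limma). Itgam and Csf3r lost the call without replicate 2 or 3 (adjusted p = 0.0634 and 0.0563 for Itgam, 0.0779 and 0.0685 for Csf3r), and the other 4 kept it in each fit without 1 replicate. With the scanner software's ratios Aldoc was at -0.20 and Csf3r at -0.069, and both lost the call (adjusted p = 0.073 and 0.388). The summed level of the astrocyte markers was 131674 to 148892 in the knockout-labelled and 175462 to 186791 in the wild-type samples. Aldoc was the brightest of them, at log2 levels of 16.46 to 16.72 and 16.95 to 17.04, so this sum mainly follows Aldoc. For the myeloid markers the summed level was 112980 to 122412 and 131584 to 147640. Csf3r, at log2 levels of 15.33 to 15.62 and 15.53 to 15.81, and Itgam, at 14.67 to 14.96 and 14.84 to 15.16, were the brightest of these. The myeloid sum therefore mainly follows Csf3r and Itgam. Within wild type neither sum had samples 1 and 2 as a pair above the others, unlike the 9 striatal genes, and their part in the result was not tested.

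Activity-regulated genes, which respond to neuronal firing and injury and some of which drive striatal peptides, had medians of -0.41, -0.18, -0.20 and -0.14 over 11 genes with 4 lower. Nptx2, a secreted pentraxin of synapses, fell by 0.29, Bdnf, a neurotrophin that the cortex supplies to the striatum, by 0.34 and Egr2, a zinc finger factor, by 0.60 (adjusted p = 0.0117, 0.016 and 0.0331 in limma). Nptx2 lost the call without replicate 2 (adjusted p = 0.0523), Bdnf without replicate 1 (adjusted p = 0.0632) and Egr2 without replicate 1 or 2 (adjusted p = 0.0933 and 0.121). Their summed level was 37847 to 61255 in the knockout-labelled and 41653 to 72445 in the wild-type samples, and their part in the result was not tested. In the remaining lists, 1 of 7 thalamic markers and 1 of 4 olfactory bulb markers were lower and 1 of 6 tested hippocampal markers was higher.

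**Figure D4:**
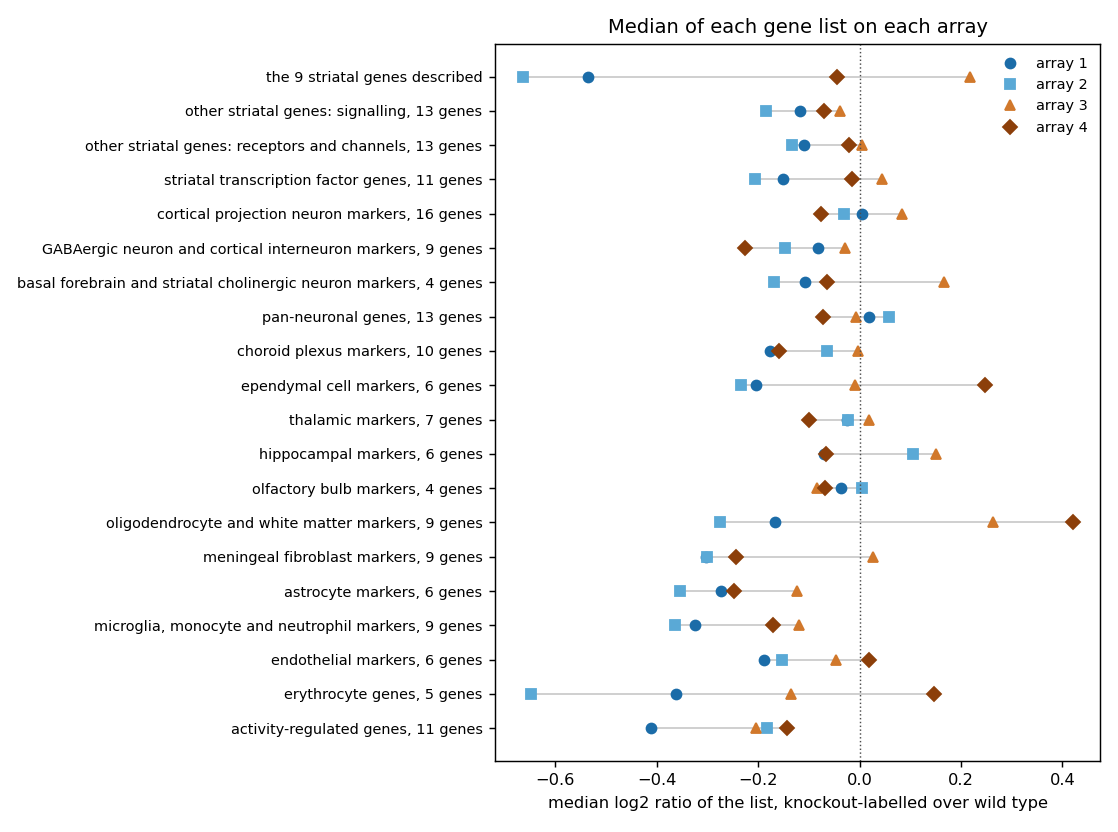
Median log2 ratio, knockout-labelled to wild type, on each of the 4 arrays (x axis, 1 symbol per array) for the 9 striatal genes, the further striatal lists and the marker lists of other tissues and cell types (y axis, number of genes tested beside each name), with a thin line from the lowest to the highest array. The 9 genes reach -0.66 on array 2 and 0.22 on array 3, while cortical projection neuron markers stay between -0.08 and 0.08.

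Likeness to the profile of the 9 genes was measured as the root mean square difference from their median on the 4 arrays, over 16050 named genes outside the 9. The closest were Eef1akmt4 (0.0676), a methyltransferase, Foxq1 (0.0873), a forkhead factor, Krtap11-1 (0.0939), a keratin-associated protein, Uaca (0.102), a coiled-coil autoantigen, and Col4a1 (0.104), a collagen of basement membranes. None of these 5 was on a striatal list. Of the listed genes the closest was Prox1, a hippocampal granule cell marker, at rank 15, and the closest further striatal genes were Slc35d3 at rank 43 and Gng7 at rank 47. The likeness rests on 4 arrays.

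By the same measure the 9 genes themselves ranged widely. Rgs9 lay at 0.049 with 0 of the 16050 genes closer, Pde10a at 0.149 with 33 closer and Drd1 at 0.202 with 149 closer. Adora2a and Drd2 followed at 0.242 and 0.251, then Tac1 at 0.288 and Penk at 0.319. Ppp1r1b at 0.375 had 3541 genes closer and Pdyn at 0.556 had 13459. The members took part in the median, so these distances describe how they vary among themselves.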

How the data were processed

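Scanner files of the 4 arrays were used; groups, dyes and replicate numbers came from the labels. Per the file headers, spot and background signals are intensities made with Agilent Feature Extraction 11.0.1.1 (the submitters' processing notes name 10.7.3.1), and the deposited log10 ratios are Cy5 over Cy3. The deposited value table holds log2 of processed Cy5 over Cy3, the opposite direction, with column medians of -0.05, -0.06, -0.04 and -0.03; it was used as a check only. The deposited flags are other values that mark spots above background, saturated or outlying. The labels' labelling protocol speaks of plant material and cannot describe this tissue in full.

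In limma 3.58.1 (R 4.3.3), median signals were background-corrected by normexp (offset 50) and normalized by loess within arrays, with controls and outlier spots (139 to 186 per array) at weight 0, and by Aquantile for levels. Spots of a probe were averaged. Tested were probes that either channel measured well above background on 3 or more arrays, against 0 with lmFit and eBayes, each probe separately, and adjusted by Benjamini-Hochberg over all 30259. The array pairs both samples of a number, since they share a hybridization. Intervals use limma's moderated error. Symbols came from RefSeq names for 27427 probes (69.6%). Spike-in log ratios had observed over expected slopes of 0.728 to 0.739, so ratios are compressed.

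The 9 genes and the 19 lists were chosen with earlier results of these data known. Named were all probes of the 9, Ndrg2, up to 3 genes of smallest p in the lists described gene by gene, and the 5 closest profiles. Further genes, such as Gnal, Slc35d3, Gng7, Prox1 and Aqp1, were named where they bear on a list or its sum. The values of 1 listed gene are not reported here. The test across probes was checked on simulated data. Alternatives covered background correction, normalization, filter, variance model, replicate block, 1 probe per gene and leaving out each replicate.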

Additional observations from a re-analysis of the deposited data

Results flagged for a closer look

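Ppp1r1b had 1 array far from the others: array 3 at 0.30 against -0.05, -0.10 and -0.10, a gap of 0.856 of the whole range of its log2 ratios, above Dixon's critical value for 4 values. Of 49 results tested in this way it was the only one past that value, and chance gives about 1 in 20 (2.45 of 49).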

How the results depend on the processing

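Over 14 alternatives, the results of the 12 probes kept direction and side of the threshold in 146 of 165 cases, with 8 newly past it, 7 no longer past it and 4 reversed. Those of other named genes did so in 395 cases, with 12 newly past it, 92 no longer past it and 5 reversed. The mean over arrays of the median of the 9 genes stayed below 0 in each alternative that changes it, from -0.56 with median centring to -0.12 without replicate 2.

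With median centring, 9 of the 12 probes were lower and 2 higher, and of all probes 15570 were lower and 7899 higher, so that 66.3% of calls were lower in place of 55.7%. The mean turned to 0.13 for Drd2, -0.46 for Ppp1r1b, 0.28 for the third Rgs9 probe, -0.24 for Foxp1, 0.077 for Six3, -0.27 for Neurod2, -0.054 for Emx1 and -0.11 for Nefm. That setting moved the median of all tested probes to -0.15 and the medians of the 9 genes to -0.95, -0.94, -0.03 and -0.31. The cause was not tested. With ratios taken from the scanner software, 0 of the 12 were lower, and 2028 of all probes were lower and 2335 higher, so that 46.5% of calls were lower and most were higher. With no replicate block (samples treated as unpaired) 0 of the 12 were higher, and 1750 of all probes were lower and 1646 higher. Beside the calls named with the results, those of Itpr1, Ppp1r9b, Oprm1, Foxp1, Rarb, Neurod2, Tbr1, Gad2, Lhx6, Syn1, Stmn2, Otx2, Bdnf and Egr2 were lost with the scanner software's ratios, and those of Rasd2, Ppp1r9b, Oprm1, Foxp1, Rarb, Tbr1, Gad2, Lhx6, Syn1, Stmn2, Otx2, Itgam, Csf3r and Egr2 with no replicate block, all with the sign kept. Leaving out 1 replicate at a time gave 0 to 2 lower and 0 to 1 higher of the 12, and 1355 to 2164 lower and 1064 to 1650 higher of all probes; the mean of Ppp1r1b ran from -0.085 to 0.049. The wild-type range was the wider for 6 of the 9 genes also under both scalings of the single channels that were added after seeing the data, beside 31.5 and 37.6% of all probes. Dim probes such as those of Pdyn and Drd2 and the third of Rgs9 rest on signals near the background, where small differences cannot be measured well.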
